A study of Mus musculus with 23 samples.

Results

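The 47 genes described here act in the G2 and M phases of the cell cycle. They comprise cyclins and the cyclin-dependent kinase Cdk1, mitotic kinases, the chromosomal passenger complex, kinetochore and spindle checkpoint genes, kinesins, spindle organisers, cytokinesis genes, condensin subunits, partners of the anaphase-promoting complex, the transcription factor Foxm1, the proliferation antigen Mki67 and the topoisomerase Top2a. They were chosen by name and not by a measured value, but with earlier results of these data known. All 47 were listed in both deposited expression tables, of 11548 genes for naive B cells, 10574 for cultured B cells and 10178 in both.

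Polyadenylated RNA of sorted mouse spleen B cells was sequenced to compare cells in which Irf8 was targeted (KO) with WT cells at 3 stages of differentiation. IRF8 is a transcription factor of B cells and myeloid cells. The WT cells had no guide RNA and lacked Thy1.1, whereas the KO cells had a guide against Irf8 and were positive for Thy1.1. All cells were negative for CD11b, F4/80 and Thy1.2. Naive cells were B220-positive and untreated, and each of the 2 guides had an arm of 3 WT and 3 KO libraries (lettered A, B and C). Cultured cells had been stimulated for 72 hours with IL-2 at 20 ng/ml, IL-5 at 5 ng/ml and LPS, whose dose is labelled as 20 mg/ml, and their KO cells had guide 1. Activated B cells (3 WT, 3 KO) were sorted as B220+ GL7+ CD138-. Plasmablasts (2 WT, 3 KO), whose cell type label reads plasma cell, were sorted as CD138+ with high or intermediate B220. How the guide was delivered, and the strain, sex and age of the mice, are not given in the sources used here. The titles of cultured samples begin with m1, m2 or m3, shared by samples of both genotypes and both cell types, and do not say what m stands for. These libraries are numbered 1, 2 and 3 below. The labels do not say that replicates came from separate animals or cultures, so p-values measure only the spread between these samples.

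Resting naive B cells are out of the cell cycle, and stimulation through Toll-like receptors drives them to divide before and while some become antibody-secreting cells. Transcripts of G2/M genes accumulate late in each cycle: Cdk1 with A- and B-type cyclins starts mitosis, the kinases Plk1, Aurka and Aurkb build and police the spindle, and the anaphase-promoting complex with Cdc20 ends it. In resting cells the DREAM complex holds many of these genes silent through a promoter element, the cell cycle genes homology region (CHR), and in dividing cells B-MYB and FOXM1 act with the same MuvB core proteins to turn them on. CCAAT boxes, bound by the trimeric factor NF-Y, lie beside the CHR in many of them.

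Promoter sequence was compared with this description. A RefSeq table of start sites on GRCm38.p6 held 39 of the 47 genes, in 41 windows from 250 bases before to 50 after the start. The CCAAT box was searched as the letters CCAAT on both strands, reading ATTGG where it lies on the opposite one. For the CHR the form TTTGAA was searched on both strands, and so was the variant form, TTCGAA. A box and a CHR match can overlap by at most 1 base. A CCAAT box was found in 75.6% of the members' windows and in 37.4% of all 32851 windows of that length. A CHR match was found in 78.0% against 19.2%, and both together in 68.3% against 7.5%. From 100 bases before to 50 after the start, the shares were 65.9% against 23.4%, 75.6% against 8.6% and 58.5% against 2.1%. These are descriptions of letters and not of binding.

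Matches were counted per window, in the members as in all windows. Ect2 and Prc1 have overlapping windows, so a site in both windows was counted in each. The CHR matches lay close to the start. Of 45 matches in 30 member genes, 68.9% fell between 30 bases before the start and the window's end, against 19.3% of the 7260 matches in all windows. Their median position was 15 bases before the start, and 21 of them lay after it. The CCAAT boxes lay further out: 64.4% of 73 boxes in 29 genes fell within the 100 bases before the start, against 43.6% of 17707 in all windows. A pair of CCAAT boxes 31 to 35 bases apart, a spacing chosen after the sequences were seen, was present in 9 of the 41 member windows and 1.3% of all windows.

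The 150 bases before the start are printed for 7 members that recur below and show the range of layouts, 5′ to 3′ along the gene's strand, from RefSeq on GRCm38.p6. Capitals mark CCAAT boxes and CHR matches on either strand.
Cdk1 (chr10:69352913-69353062, minus strand): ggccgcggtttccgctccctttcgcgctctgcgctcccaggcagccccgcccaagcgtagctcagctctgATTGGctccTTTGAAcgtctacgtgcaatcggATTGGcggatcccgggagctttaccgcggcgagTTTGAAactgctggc
Ccnb2 (chr9:70421555-70421704, minus strand): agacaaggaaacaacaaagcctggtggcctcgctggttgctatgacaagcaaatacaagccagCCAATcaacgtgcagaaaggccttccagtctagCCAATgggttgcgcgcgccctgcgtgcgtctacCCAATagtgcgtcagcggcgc
Cdc20 (chr4:118437344-118437493, minus strand): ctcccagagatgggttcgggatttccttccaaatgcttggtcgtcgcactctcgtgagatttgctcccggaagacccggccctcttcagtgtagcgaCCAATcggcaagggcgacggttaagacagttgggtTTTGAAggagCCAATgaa
Ube2c (chr2:164769779-164769928, plus strand): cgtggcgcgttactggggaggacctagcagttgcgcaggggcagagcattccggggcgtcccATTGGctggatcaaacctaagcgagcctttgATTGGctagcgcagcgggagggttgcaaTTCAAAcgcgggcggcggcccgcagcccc
Top2a (chr11:99024190-99024339, minus strand): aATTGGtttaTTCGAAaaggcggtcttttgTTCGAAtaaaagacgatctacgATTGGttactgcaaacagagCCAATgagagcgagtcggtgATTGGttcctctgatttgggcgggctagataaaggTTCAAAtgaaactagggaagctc
Kif11 (chr19:37376232-37376381, plus strand): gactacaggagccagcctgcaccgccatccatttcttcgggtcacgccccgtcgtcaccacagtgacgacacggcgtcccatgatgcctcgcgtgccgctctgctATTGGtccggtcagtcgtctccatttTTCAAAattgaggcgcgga
Kif15 (chr9:122950931-122951080, plus strand): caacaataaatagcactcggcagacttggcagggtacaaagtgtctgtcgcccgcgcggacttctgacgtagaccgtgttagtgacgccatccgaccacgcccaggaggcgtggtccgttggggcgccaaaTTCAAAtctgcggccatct
In the printed 150 bases, Cdk1 has 2 CCAAT boxes and 2 CHR matches, 1 of them close to the start. These counts leave out the rest of each window, where some members have further matches. Cdc20 and Ube2c each have 2 CCAAT boxes and 1 CHR match close to the start. The Ccnb2 stretch has 3 CCAAT boxes in a row and no CHR match. The CHR matches of Ccnb2 lie outside the stretch, at 167 bases before the start and at base 5 after it. Top2a has 4 CCAAT boxes and 3 CHR matches. The kinesins Kif11 and Kif15 differ: Kif11 has 1 box beside its CHR match and Kif15 has a CHR match and no box.

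**Figure D1:**
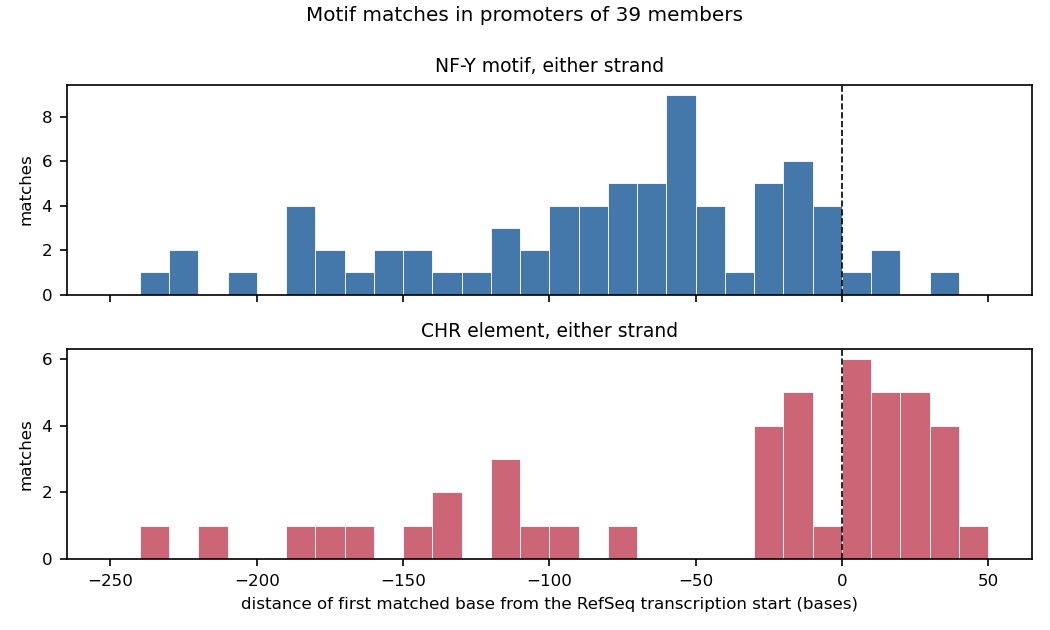
Number of motif matches (vertical axis) in steps of distance from the transcription start in bases (horizontal axis, dashed line at the start), for CCAAT boxes (above) and CHR matches (below) on either strand in the 39 members in the RefSeq table. The CHR matches gather around the start (median 15 bases before it) and 47 of the 73 CCAAT boxes lie within the 100 bases before it. Matches are counted per window, so sites in the overlapping windows of Ect2 and of Prc1 count in each.

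Values are RPKM, reads per kilobase of gene and scaled to the reads assigned to genes, and log2 differences are on the log2(RPKM + 1) scale, which makes changes of genes near 1 RPKM look smaller than their ratios. Reads assigned to genes, estimated from the steps between low values, were 14500000 to 22200000 in the 12 naive libraries and 4320000 to 26900000 in 10 of the 11 cultured libraries. Plasmablast KO library 3 had 51200 reads, of which 220 fell on the 47 members (median 3 per member, 6 members at 0). Irf8 was at 79.8 to 97.96 RPKM in naive WT and 47.6 to 77.7 in naive KO libraries. In activated cells it was at 108.5 and 93.6 in WT libraries 1 and 2, 69.2 and 68.1 in KO libraries 1 and 2, 60.0 in the library labelled WT 3 and 92.4 in the library labelled KO 3. Thy1, the gene of the sorting marker, was at 25.7 in the library labelled WT 3 and 0.093 in that labelled KO 3, so both went against their labels. In plasmablasts Irf8 was at 24.6 and 17.6 in WT and 17.5, 21.4 and 24.2 in KO. Thy1 stood at 4.93 in naive WT guide 1 library A, where the remaining 5 naive WT libraries reached 0.052 at most and the naive KO ones 8.88 to 22.1. Naive KO guide 1 library A had 1405 genes at 0, against 66 to 291 in the other naive libraries. These 5 libraries are called the libraries in doubt below. No gene of the lists of 6 T cell and 5 neutrophil markers was in both tables. Sdc1, which encodes CD138, was at 27.5 to 34.1 in 4 plasmablast libraries, 3.03 in plasmablast KO library 3 and 0.226 to 0.79 in activated cells.

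All 47 members were higher in each of the 5 cultured WT libraries than in each of the 6 naive WT libraries, as were 22.6% of the 10178 genes in both tables. The mean in activated WT cells was 1.42 to 53.5 times that in naive WT cells, with a median of 16.4 over the members and 0.974 over all genes in both tables. For 35 members the ratio was above 10, against 2.12% of all genes. The authors normalized the tables separately, so these ratios are descriptions and were not tested. One naive library weighs on them: without naive WT guide 1 library C, which was the highest of the 12 naive libraries for 43 members, the ratios ran from 1.43 to 176.5 with a median of 24.4, and those of 19 members were over 1.5 times higher. Among these, Ube2c moved from 53.5 to 176.5, Plk1 from 38.6 to 89.9, Kif2c from 37.1 to 81.5 and Kif11 from 15.8 to 41.9. The ratios given by role below include that library. The median member was at 1.91 RPKM in naive WT, 28.3 in activated WT and 28.3 in plasmablast WT cells. In bulk RNA, more cells in mitosis and more of a transcript per cell cannot be told apart.

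**Figure D2:**
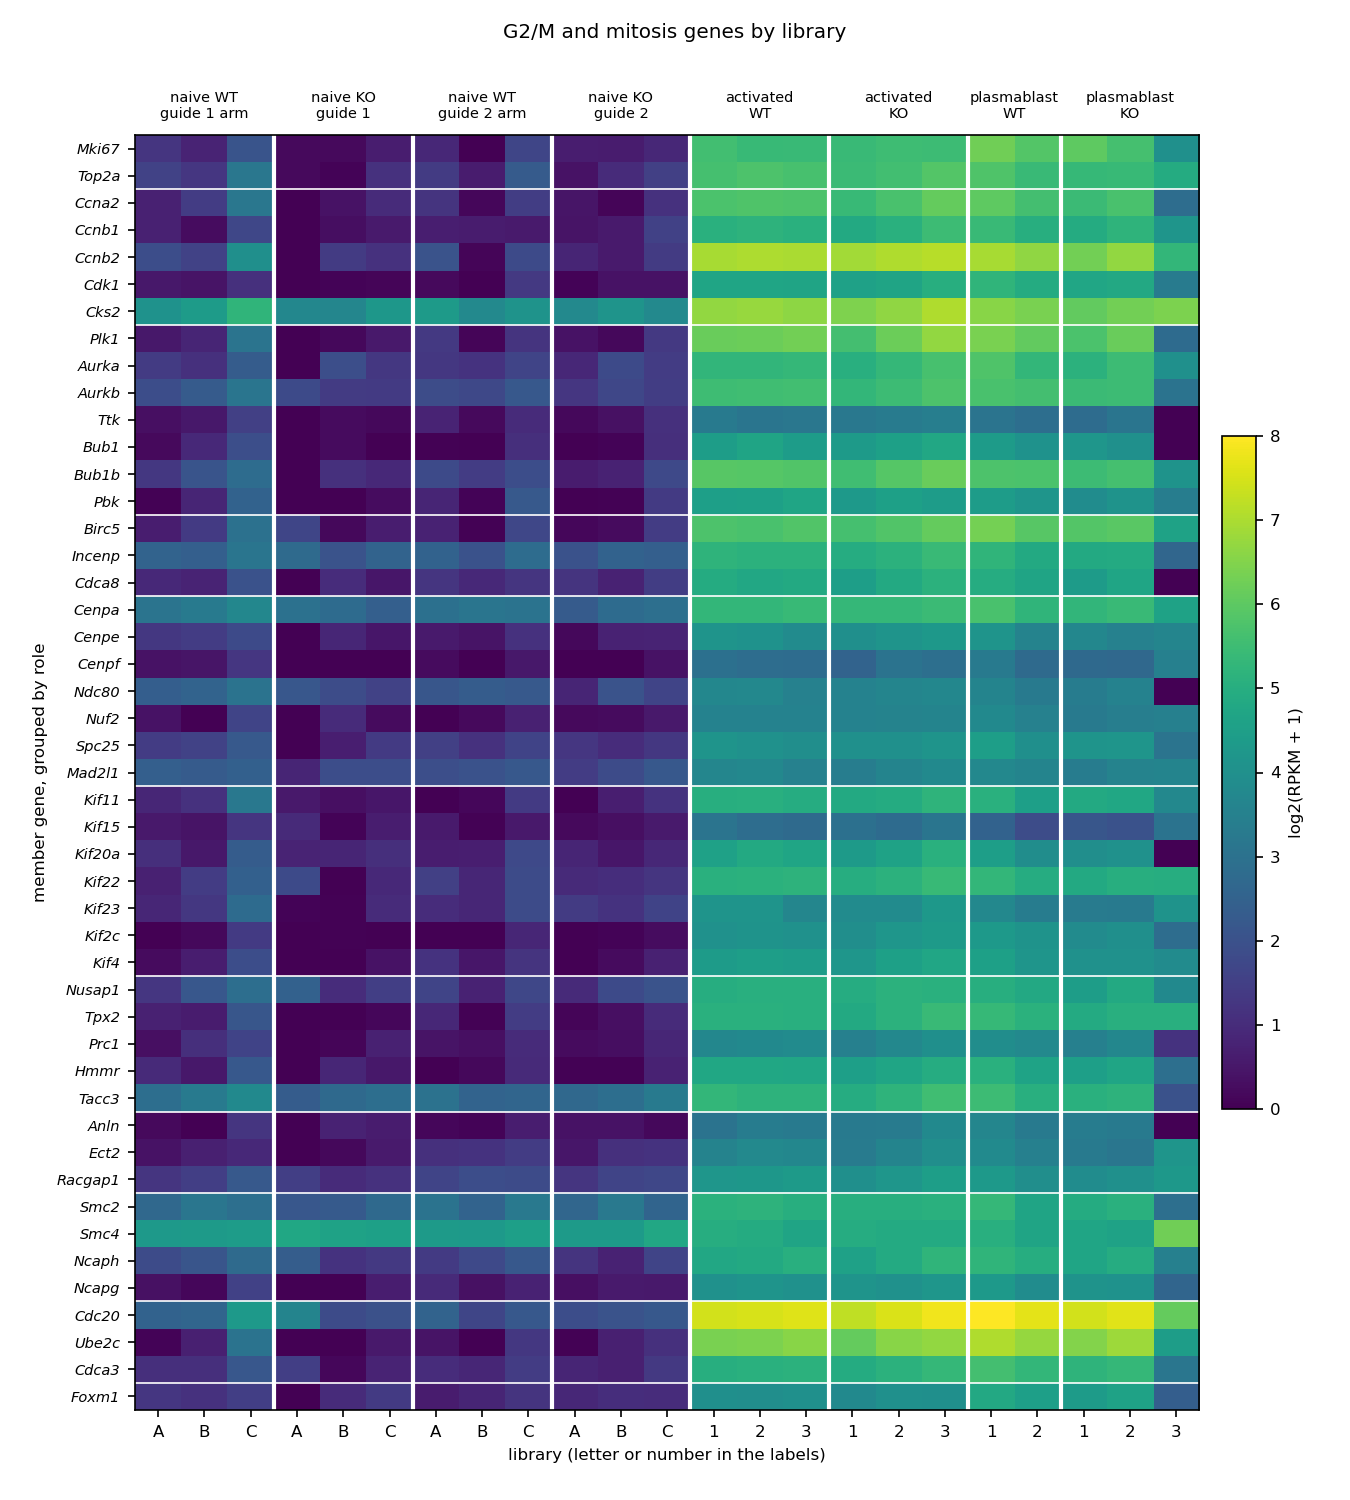
Level of each of the 47 members (vertical axis, grouped by role) in each of the 23 libraries (horizontal axis, by group), as log2(RPKM + 1). Naive libraries are low for most members, naive WT guide 1 library C is the highest naive one for 43 of them, and plasmablast KO library 3 is the lowest plasmablast library for 35.

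The cyclins and Cdk1 had a median ratio of 30.1 between activated and naive WT cells. Ccnb1, the B-type cyclin that partners Cdk1 at mitotic entry, lay between 0.19 and 2.26 RPKM (median 0.564) in the 6 naive WT libraries, at 32.8, 35.1 and 32.6 in the 3 activated WT libraries and at 41.6 and 31.1 in the 2 plasmablast WT libraries. Cdk1 lay between 0 and 1.5 (median 0.373) in naive WT, at 25.3, 25.2 and 24.7 in activated WT and at 36.9 and 29.5 in plasmablast WT. For both genes the naive and cultured groups stood more than 10-fold apart with no overlap. Ccna2 and Ccnb2 rank beside them, with ratios of 23.7 and 30.1. Cks2, a small subunit that binds Cdk1, differed in its starting level: its mean was 20.2 in naive WT (16.9 without WT guide 1 library C) and 103.4 in activated WT, a ratio of 5.13.

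Mki67, the antigen used to mark dividing cells, lay between 0.011 and 3.26 (median 1.12) in naive WT, at 46.8, 41.2 and 41.7 in activated WT and at 75.4 and 57.4 in plasmablast WT. Top2a, which untangles chromosomes before they separate, lay between 0.536 and 8.01 (median 1.83) in naive WT, at 49.3, 53.5 and 49.7 in activated WT and at 54.0 and 41.6 in plasmablast WT. Mki67 was higher in both plasmablast WT libraries than in all activated WT ones, whereas for Top2a these groups overlapped.

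The 7 mitotic kinases had ratios from 11.1 to 38.6. Plk1, which acts at centrosomes and kinetochores, lay between 0.088 and 7.37 (median 1.04) in naive WT, at 71.5, 72.6 and 77.0 in activated WT and at 82.0 and 66.5 in plasmablast WT. Aurkb, the kinase of the passenger complex, lay between 2.29 and 7.66 (median 3.13) in naive WT, at 45.2, 45.7 and 46.8 in activated WT and at 51.5 and 48.1 in plasmablast WT. Bub1b, a spindle checkpoint protein, lay between 1.46 and 6.08 (median 2.6) in naive WT, at 59.4, 58.9 and 55.3 in activated WT and at 53.6 and 52.1 in plasmablast WT. Of these 3, Plk1 had the largest share of its naive mean from 1 library: its next highest naive WT value was 1.48. Aurka and Bub1 had ratios of 19.7 and 26.4, and Ttk and Pbk of 11.1 and 13.9.

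In the passenger complex, which corrects attachments of chromosomes to the spindle, ratios ran from 6.84 for the scaffold Incenp to 26.5 for Birc5 (survivin). Birc5 lay between 0.041 and 6.89 (median 1.13) in naive WT, at 53.1, 50.7 and 55.4 in activated WT and at 79.8 and 59.1 in plasmablast WT. Its plasmablast WT libraries were both above the activated WT ones. Incenp had a mean of 5.08 in naive WT, so its messenger RNA was present in resting cells at a level that Birc5 did not reach in 5 of 6 libraries.

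Kinetochore, centromere and checkpoint genes had the second lowest median ratio of the roles, 7.43. Cenpa, the histone H3 variant of centromeres, lay between 6.82 and 11.95 (median 7.57) in naive WT, at 38.7, 38.0 and 41.3 in activated WT and at 51.2 and 36.9 in plasmablast WT. Ndc80, the kinetochore's main microtubule-binding protein, lay between 3.4 and 7.23 (median 4.16) in naive WT, at 11.9, 12.3 and 10.3 in activated WT and at 11.3 and 8.75 in plasmablast WT. Ndc80 thus differed from its complex partners: its ratio was 2.52, against 19.8 for Nuf2 and 7.43 for Spc25. The naive mean was 4.58 for Ndc80, 0.537 for Nuf2 and 2.08 for Spc25, and the activated means were 11.5, 10.6 and 15.5. In activated cells the 3 genes were thus within 1.5-fold of each other per length. Mad2l1, a checkpoint protein, had a ratio of 3.13, and the kinetochore proteins Cenpe and Cenpf had ratios of 12.015 and 14.2.

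The 7 kinesins had a median ratio of 16.4. Kif11, the motor that pushes spindle poles apart, lay between 0.014 and 8.14 (median 1.02) in naive WT, at 31.6, 32.1 and 29.8 in activated WT and at 32.6 and 22.01 in plasmablast WT. Kif2c, a microtubule depolymerase, had the highest ratio of the kinesins, 37.1, and Kif23, a subunit of centralspindlin, the lowest, 7.19. The chromokinesins Kif22 and Kif4 stood at 16.8 and 19.4, Kif20a at 16.4 and Kif15 at 12.4.

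Among spindle organisers, Nusap1, which bundles microtubules near chromosomes, lay between 0.684 and 6.36 (median 2.17) in naive WT, at 30.7, 31.8 and 32.1 in activated WT and at 31.2 and 27.5 in plasmablast WT. Tpx2, an activator of Aurka, had a ratio of 27.2, Hmmr 25.8 and Prc1, which cross-links the central spindle, 15.1. Tacc3, a clathrin partner on spindle fibres, was already at a mean of 7.48 in naive WT and had a ratio of 4.8.

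For cytokinesis, Ect2, which activates RhoA at the cell equator, lay between 0.321 and 1.69 (median 1.02) in naive WT, at 10.99, 12.6 and 12.1 in activated WT and at 13.2 and 10.2 in plasmablast WT. Its partner Racgap1 had a ratio of 7.73 and Anln, the actin-binding anillin, 23.1. Ect2 had its highest naive value in WT guide 2 library C and not in WT guide 1 library C, as 1 of the 4 members whose highest naive library was another.

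The condensin subunits among the members split by type. Smc2 lay between 4.81 and 8.39 (median 6.9) in naive WT, at 33.2, 34.7 and 31.5 in activated WT and at 39.2 and 24.7 in plasmablast WT. Its partner Smc4 had the lowest ratio of the 47, 1.42, with means of 19.9 in naive and 28.3 in activated WT cells. These ATPases belong to both condensin complexes, and the non-SMC members, both of condensin I, had higher ratios, 9.08 for Ncaph and 22.5 for Ncapg. Smc2 and Smc4 were thus at a mean of 6.72 and 19.9 RPKM in naive WT cells, against 3.21 for Ncaph and 0.709 for Ncapg. Among non-SMC subunits outside the 47, the ratio was 7.45 for Ncapd2, 14.2 for Ncapg2, 3.3 for Ncapd3 and 1.65 for Ncaph2. Ncaph2 was at a mean of 24.5 in naive WT, so the split did not hold for all subunits.

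Among the partners of the anaphase-promoting complex, its activator Cdc20 had the highest activated WT mean of the 47, 183.2 RPKM. Cdc20 lay between 2.18 and 19.2 (median 4.74) in naive WT, at 173.8, 181.7 and 194.1 in activated WT and at 254.4 and 204.1 in plasmablast WT. Ube2c, the E2 enzyme that starts its ubiquitin chains, had the highest ratio of the 47, 53.5, from a naive WT mean of 1.64 to 87.5 in activated WT. Of that naive mean, library C of guide 1 gave 7.34 RPKM and the other 5 libraries at most 1.44. Cdca3, a regulator of mitotic entry, had a ratio of 21.2. Foxm1, the transcription factor of the set, lay between 0.539 and 1.8 (median 1.26) in naive WT, at 15.0, 14.5 and 15.3 in activated WT and at 27.6 and 22.05 in plasmablast WT. Its activated libraries were within 1 RPKM of each other, and both plasmablast values stood above them.

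The 30 members with a CHR match in the window had a median ratio of 19.6 (2.52 to 53.5), and the 9 in the table without one (Birc5, Ccnb1, Cenpe, Cks2, Mad2l1, Ncaph, Nuf2, Nusap1 and Tacc3) had a median of 11.6 (3.13 to 42.3). The ranges overlapped over most of their length, and the difference was not tested.

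Other cell cycle genes were placed beside the members by lists of related genes. Of 56 further G2/M genes in both tables, 25 had ratios above 10 (median 8.86), from 0.767 for Pttg1 (securin) to 33.1 for Espl1 (separase), which it inhibits. DNA replication genes (30) had a median of 5.19, up to 33.8 for the origin-licensing factor Cdc6, and G1/S cyclins, CDKs and E2F factors (14) a median of 3.55. Subunits of the anaphase-promoting complex and cohesin (26) had a median of 1.34, and DREAM and B-MYB complex genes (12) of 1.18. Within that last list Mybl2, which encodes B-MYB, had a ratio of 19.9, and E2f5 of 0.52. CDK inhibitors and other brakes (13) had a median of 1.15: Cdkn1a, which encodes p21, had a ratio of 29.2 and Btg1, an antiproliferative gene of resting lymphocytes, of 0.179.

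**Figure D3:**
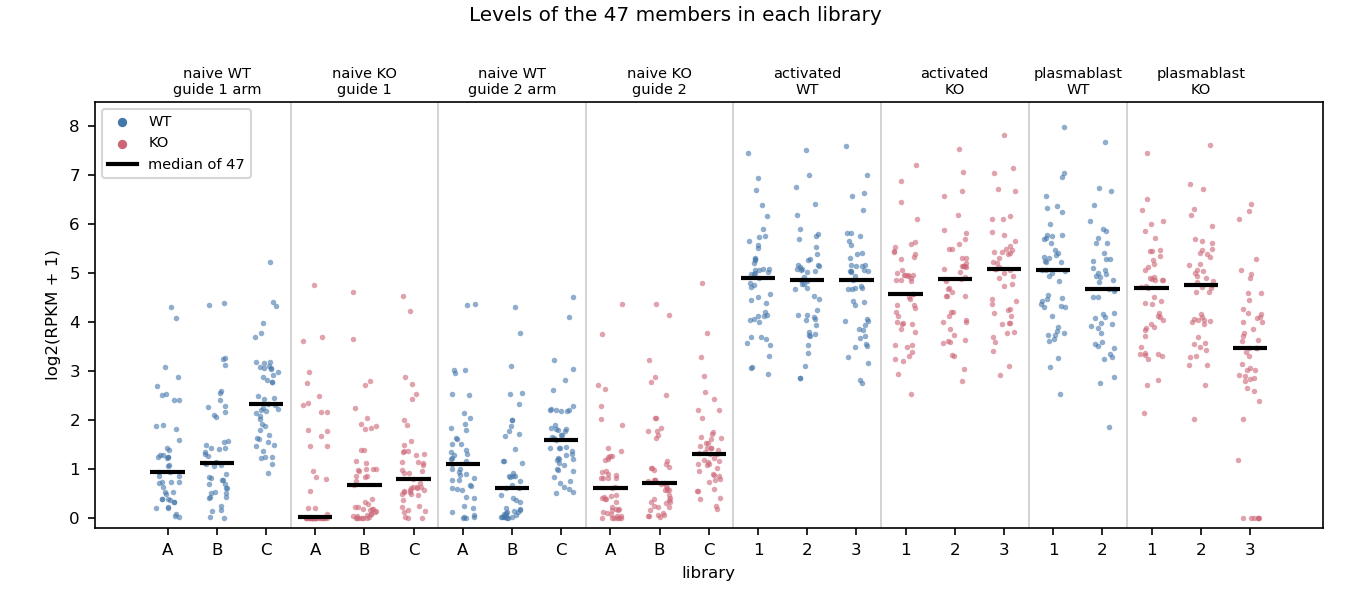
Level of the 47 members (1 point per gene) in each of the 23 libraries as log2(RPKM + 1), with a bar at the median of each library, WT in blue and KO in red. All cultured libraries have higher medians than all naive ones, naive WT guide 1 library C has the highest naive median (4.07 RPKM) and plasmablast KO library 3 the lowest cultured one (10.1 RPKM).

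In naive cells the KO and WT libraries overlapped for every one of the 40 members that passed the filter of 1 RPKM in at least 2 libraries, and limma called none of them over both guides, against 1.88% of the 10137 genes tested. At an unadjusted p under 0.05 there were 13, against 1289 of the 10137 genes tested, and limma voom on estimated reads also called none. The estimate was below 0 for 39 of the 40, with a median of -0.49 against -0.02 over all genes, of which 54.1% were below 0. Members of low level pass this filter mainly through the libraries where they are high. With no filter, 45 of all 47 were below 0, the median was -0.43, none was called and 15 had an unadjusted p under 0.05.

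The lowest estimates were for Bub1b, Ccnb2 and Top2a. Bub1b was at 0.014, 1.17 and 0.905 RPKM in KO guide 1, 1.46, 3.21 and 6.08 in WT guide 1, 0.523, 0.707 and 2.4 in KO guide 2 and 2.48, 1.65 and 2.72 in WT guide 2. Within the guide 1 arm all KO libraries were below all WT libraries, and in the guide 2 arm KO library C was not. Its mean was 0.954 ± 0.81 in KO and 2.93 ± 1.67 in WT (SD, n = 6 libraries each), and the log2 difference was -1.01 (SE 0.301, limma adjusted p = 0.141). Ccnb2 was at 0, 1.63 and 1.22 in KO guide 1, 2.74, 1.96 and 14.8 in WT guide 1, 0.766, 0.496 and 1.64 in KO guide 2 and 3.1, 0.074 and 2.48 in WT guide 2. Its WT values ran from 0.074 in the guide 2 arm to 14.8 in the guide 1 arm, and the KO values lay within that range or at 0. The log2 difference was -1.01 (limma adjusted p = 0.379). Top2a was at 0.148, 0.052 and 1.22 in KO guide 1, 2.02, 1.43 and 8.01 in WT guide 1, 0.319, 0.98 and 1.88 in KO guide 2 and 1.64, 0.536 and 3.92 in WT guide 2. Only the guide 1 arm was free of overlap, and the log2 difference was -1.004 (limma adjusted p = 0.268). With the library letter added as a term, limma called Top2a (adjusted p = 0.039), but the labels do not say what a letter stands for. The share of all genes called with that term is not given here.

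The lowest adjusted p of the members belonged to Ndc80. It was at 3.47, 2.6 and 1.99 in KO guide 1, 4.3, 4.85 and 7.23 in WT guide 1, 0.761, 3.12 and 2.1 in KO guide 2 and 3.4, 4.03 and 3.65 in WT guide 2. In both arms every KO library was below every WT library of that arm, while KO guide 1 library A was above WT guide 2 library A. The log2 difference was -0.77 (SE 0.213, limma adjusted p = 0.107). Aurkb shared this order within both arms. It was at 2.46, 1.62 and 1.58 in KO guide 1, 2.69, 3.92 and 7.66 in WT guide 1, 1.42, 2.23 and 1.72 in KO guide 2 and 2.61, 2.29 and 3.56 in WT guide 2, with a log2 difference of -0.68 (limma adjusted p = 0.155). Cenpa did too, at 6.92, 5.94 and 4.41 in KO guide 1, 7.51, 8.69 and 11.95 in WT guide 1, 3.91, 5.9 and 6.52 in KO guide 2 and 6.82, 7.63 and 7.22 in WT guide 2. Its log2 difference was -0.49 (limma adjusted p = 0.18). Over all genes tested, this order was found for 10% within guide 1 and for 653 of 10137 within guide 2. The share of genes with this order in both arms was not counted.

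At the other end, the condensin subunit Smc4 was the 1 tested member with an estimate above 0. It was at 26.3, 23.6 and 22.3 in KO guide 1, 18.9, 19.5 and 20.4 in WT guide 1, 19.7, 19.6 and 26.9 in KO guide 2 and 19.7, 18.9 and 21.8 in WT guide 2. The guide 1 arm did not overlap and the guide 2 arm did, and the log2 difference was 0.20 (limma adjusted p = 0.442). Nusap1 (-0.10) and Incenp (-0.18) followed. Nusap1 lay between 0.942 and 4.64 (median 2.14) in the 6 naive KO libraries, and its KO library A of guide 1 was above 5 of the 6 WT libraries. Incenp lay between 3.06 and 5.79 (median 4.55) in KO and 3.0 and 7.56 (median 4.74) in WT.

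The other members given above by role also overlapped between naive KO and WT. Mki67 lay between 0.145 and 0.843 (median 0.542) in naive KO libraries, and Cdk1 between 0 and 0.325 (median 0.076). Ccnb1 lay between 0 and 1.9 (median 0.42), Plk1 between 0 and 1.49 (median 0.22) and Birc5 between 0.097 and 2.22 (median 0.363). Kif11 lay between 0 and 1.26 (median 0.44), Ect2 between 0 and 1.27 (median 0.439) and Foxm1 between 0 and 1.58 (median 1.02). Higher in level, Smc2 lay between 3.48 and 8.4 (median 5.13) and Cdc20 between 2.52 and 11.3 (median 3.06). Their log2 differences over both guides ran from -0.75 for Plk1 to -0.20 for Ccnb1 and Foxm1, and none was called.

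The estimates were larger in the guide 1 arm than in the guide 2 arm. In the guide 1 arm limma called no member, against 1.11% of all genes, and voom called none. At an unadjusted p under 0.05 there were 16 members, against 1594 of the 10137 genes tested. All KO libraries were below all WT libraries for 14 members, as were 10% of all genes tested, and above for 1, Smc4. Over the tested members 39 estimates were below 0 (55.2% of all genes) with a median of -0.74 (-0.042 over all genes), and with no filter 46 of 47 with a median of -0.68. The lowest were Ccnb2 (-1.63), Top2a (-1.54) and Bub1b (-1.38), and the highest Smc4 (0.28), Incenp (-0.23) and Kif20a (-0.41). In the guide 2 arm limma called none, against 0.0296% of all genes, and voom called none. At an unadjusted p under 0.05 there was 1 member, against 426 of the 10137 genes tested. All KO libraries were below all WT libraries for 3 of the 40 members tested, as were 653 of the 10137 genes tested. In this arm 29 estimates were below 0 (48.5% of all genes) with a median of -0.20 (0.007 over all genes), and with no filter 34 of 47 with a median of -0.15. The lowest were Ndc80 (-0.73), Bub1b (-0.65) and Kif4 (-0.63), and the highest Nusap1 (0.24), Tacc3 (0.23) and Ccnb1 (0.22). The difference between the guides' effects was called by limma for none of the 40, against 0% of all genes, and by voom for none. At an unadjusted p under 0.05 this difference gave 2 members, against 479 of the 10137 genes tested. It ran from -1.43 for Kif23, -1.38 for Kif11 and -1.26 for Ccnb2 to -0.07 for Ndc80, -0.06 for Ncaph and 0.17 for Smc4.

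Single libraries moved these estimates. In naive WT guide 1 library C the 47 members summed to 288.5 RPKM, against 106.6 and 126.8 in WT guide 1 libraries A and B, 82.7 to 142.7 in WT guide 2, 80.8 to 96.1 in KO guide 1 and 73.9 to 121.6 in KO guide 2. In the same library the summed levels of DNA replication genes (412.3) and further G2/M genes (450.3) were also the highest of the 12. So was that of the 4 natural killer cell markers listed for naive cells (12.8, against 0.74 to 11.5, the latter in WT guide 2). The 5 plasma cell markers listed there were at their lowest (53.5). Of the natural killer cell markers, Prf1 went the other way, at 0.595 ± 0.221 in WT guide 1 and 3.46 ± 1.36 in KO guide 1. Without it 35 members were tested, 33 were below 0, the median was -0.28 over both guides, -0.41 for guide 1 and -0.21 for guide 2, and none was called. Naive KO guide 1 library A had 23 of the 47 members at 0 and was the lowest of the 12 for 26.

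Leaving out the 2 naive libraries in doubt, A of WT and of KO in the guide 1 arm, limma called 5 members lower in KO over both guides, against 1.52% of 10041 genes called lower. These were Aurkb (-0.89, adjusted p = 0.0194), Bub1b (-1.04, 0.0338), Ndc80 (-0.91, 0.0374), Cenpa (-0.62, 0.0418) and Ncaph (-0.89, 0.047). In the guide 1 arm alone Aurkb was called (-1.33, limma adjusted p = 0.0379), against 0.817% of genes. When naive WT guide 1 library C was left out too, a setting chosen after its level was seen, 34 members were tested, none was called, and the median was -0.37 over both guides. With naive KO guide 1 library A alone left out, Ndc80 was the 1 member called (-0.84, limma adjusted p = 0.0327). The count of all genes called in that setting is given under the processing below.

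**Figure D4:**
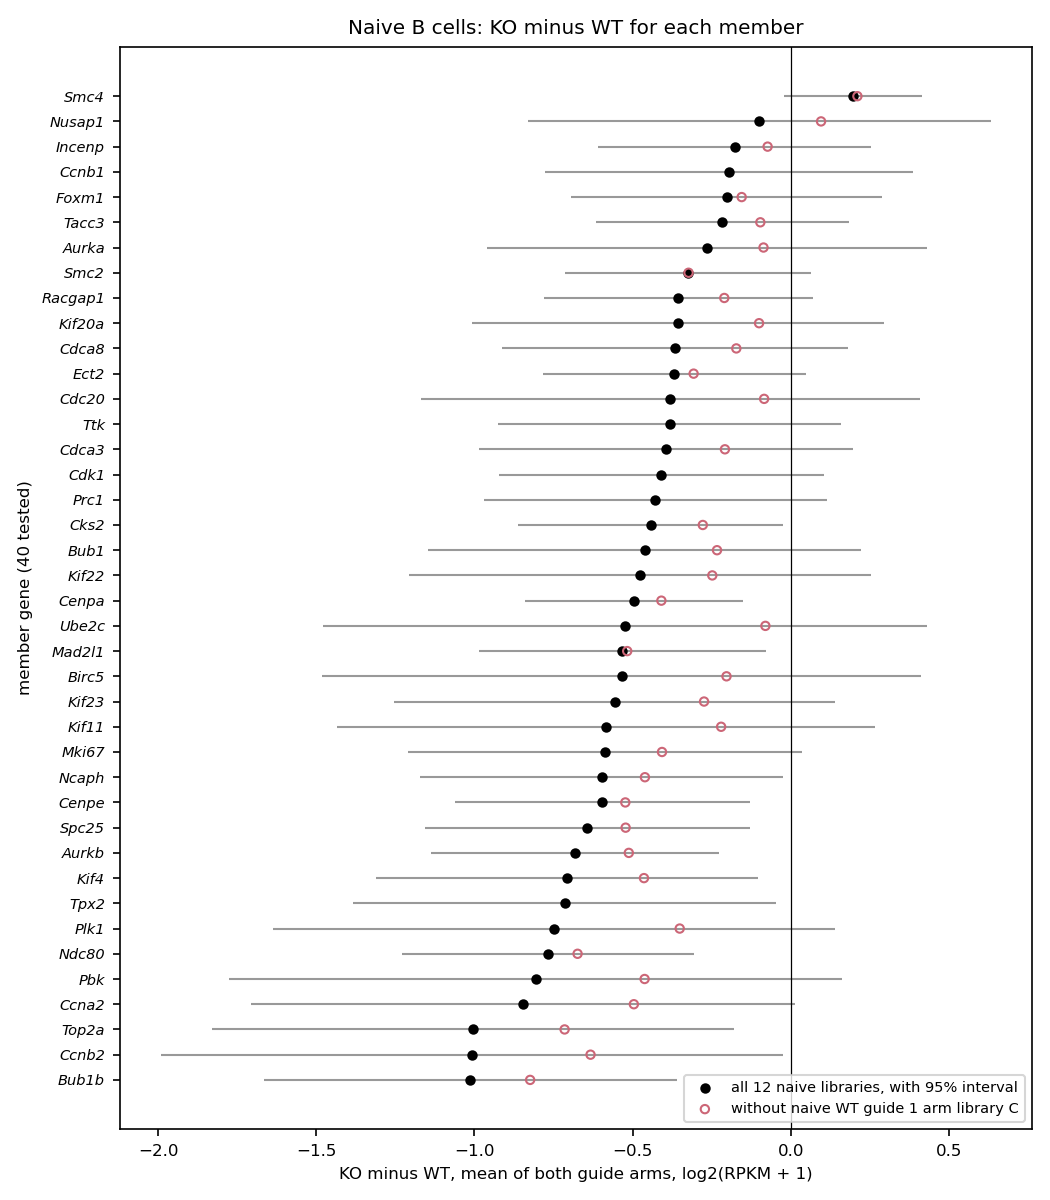
KO minus WT difference in naive cells over both guides, as log2(RPKM + 1), for the 40 members tested, with filled points for all 12 libraries (bars, 95% confidence intervals of limma) and open circles without naive WT guide 1 library C. Of the 40 filled points 39 lie below 0, and most open circles lie nearer to 0 (5 members were not tested without that library).

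Of the other cell cycle lists, limma called 2 genes over both guides in naive cells with all libraries. Stmn1, a microtubule destabiliser of the further G2/M list, was at 3.55 ± 2.17 in KO and 10.97 ± 5.68 RPKM in WT (SD, n = 6 each), a log2 difference of -1.38 (adjusted p = 0.0341), and was 1 of 44 tested. Mcm5, a subunit of the replicative helicase, was at 11.1 ± 2.86 in KO and 18.9 ± 2.76 in WT, a log2 difference of -0.75 (adjusted p = 0.0188), and was 1 of 28 replication genes tested. Both fell in KO, and the share of all genes called was the 1.88% given above. No gene of the lists of APC and cohesin (26), DREAM and B-MYB (12), G1/S (13) or CDK inhibitor genes (12) was called, with 3, 2, 4 and 4 at an unadjusted p under 0.05, as were 1289 of the 10137 genes tested.

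In activated B cells limma called no member between KO and WT, against 0% of the 9986 genes, with none at an unadjusted p under 0.05 and none by voom. The estimates ran from -0.17 for Pbk to 0.22 for Anln, with a median of 0.01 and 19 of 47 below 0. Pbk was at 18.6, 22.3 and 20.5 RPKM in KO and 22.03, 22.3 and 25.2 in WT. Anln was at 8.57, 9.15 and 13.0 in KO and 7.35, 9.37 and 8.86 in WT. In both genes the groups overlapped, and the high Anln value is that of the library labelled KO 3. After Pbk came Top2a and Plk1 (both -0.06), and after Anln came Ttk (0.12) and Kif2c (0.11).

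The spread among the libraries labelled KO was wide and ordered the same way in most members: library 1 was the lowest of the 6 activated libraries for 35 of them and the library labelled KO 3 the highest for 38. Plk1 was at 47.4, 72.4 and 102.3 in KO libraries 1, 2 and 3, and Cdc20 at 148.2, 185.1 and 224.4. Bub1b was at 45.5, 58.5 and 70.8, Birc5 at 49.2, 55.5 and 68.2 and Cdk1 at 22.8, 24.7 and 31.2. In each of these 5 genes WT libraries 1 and 2 and the library labelled WT 3 stood between KO libraries 1 and 3. Ccnb1 was at 28.2, 33.1 and 44.1 in KO, Aurkb at 38.1, 44.1 and 53.8 and Top2a at 43.0, 47.2 and 56.7. Kif11 was at 27.9, 29.4 and 35.8 and Ect2 at 8.94, 11.2 and 14.6. A narrower spread was seen for Mki67 (42.1, 44.4 and 43.6), Cenpa (39.1, 39.01 and 42.4), Foxm1 (13.0, 15.2 and 14.8), Ndc80 (10.6, 11.5 and 11.9), Nusap1 (30.2, 34.0 and 32.7) and Smc2 (31.2, 31.4 and 33.1). The members summed to 1438.7, 1691.2 and 2007.4 RPKM in KO and 1662.0, 1692.0 and 1688.8 in WT. Without the libraries in doubt, which left 2 WT and 2 KO activated libraries, 40 of 47 estimates were below 0 with a median of -0.11, and limma called no member, against 0.71% of 9861 genes. KO library 1, the lowest for most members, was 1 of these 2 KO libraries. The share of all genes below 0 was 46.4% with all libraries and is not given here for this setting.

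In plasmablasts limma called no member between KO and WT, against 0% of 9986 genes, with none at an unadjusted p under 0.05 and none by voom. The median estimate was -0.66, against -0.12 over all genes, and 44 of 47 were below 0. The lowest were Cdca8 (-1.78), Kif20a (-1.54) and Bub1 (-1.50), all at 0 RPKM in plasmablast KO library 3, and the highest Smc4 (0.34), Kif15 (0.21) and Kif23 (0.03). That library, at 3 reads for the median member, cannot give a level for a single gene. Without it the median was -0.22 and the estimates ran from -0.44 for Ect2, -0.32 for Ccnb2 and -0.31 for Kif4 to -0.01 for Smc2, 0.00 for Ndc80 and 0.01 for Kif11. All remaining KO libraries were below both WT libraries for 17 of 47 members, as were 8.42% of 9883 genes, and none was called.

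Plasmablast WT library 1 was the highest of the 5 plasmablast libraries for 41 members, so the WT pair was itself spread. Cdc20 was at 254.4 and 204.1 in WT and 174.7, 197.1 and 67.9 in KO. Mki67 was at 75.4 and 57.4 in WT and 63.3, 49.4 and 15.1 in KO. Cdk1 was at 36.9 and 29.5 in WT and 25.6, 27.5 and 9.0 in KO. For Cdc20 and Cdk1 every KO library was below both WT libraries, and for Mki67 they overlapped. Among the KO libraries 1, 2 and 3, Foxm1 was at 20.2, 23.6 and 4.28, Plk1 at 52.0, 71.9 and 6.02 and Bub1b at 43.7, 48.4 and 16.1. Aurkb was at 42.7, 44.2 and 7.2, Birc5 at 57.5, 61.3 and 23.4 and Ccnb1 at 29.3, 35.7 and 17.0. Top2a was at 39.97, 41.1 and 29.1, Kif11 at 28.2, 26.1 and 12.3 and Nusap1 at 20.7, 27.7 and 12.8. In all 9 genes library 3 was the lowest KO library. For Ect2 the values were 8.89, 7.73 and 17.2, the last resting on the few reads of library 3. Cenpa was at 37.8, 41.8 and 23.2, Ndc80 at 9.22, 10.7 and 0 and Smc2 at 29.1, 32.6 and 6.5. Without the libraries in doubt, limma called no member, against 0.071% of genes, and 45 of 47 estimates were below 0. The share of all genes below 0 was 58.1% with all libraries and is not given here for this setting. Whether the KO effect differed between plasmablasts and activated cells was tested as an interaction: limma called no member, against 0% of all genes, with none at an unadjusted p under 0.05 and none by voom. That difference ran from -1.75 for Cdca8, -1.53 for Bub1 and -1.51 for Kif20a to 0.01 for Kif23, 0.16 for Kif15 and 0.29 for Smc4.

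The plasmablasts and activated cells of 1 genotype were then compared. With all libraries limma called no member in WT, against 1.76% of all genes, and none in KO, against 3.44%. At an unadjusted p under 0.05 there were none in WT, against 1369 of the 9986 genes tested, and 7 in KO, against 2115. In WT 26 members were above 0 and 21 below, with a median of 0.02 against -0.12 over all genes. In KO 45 were below 0, against 63% of all genes, with a median of -0.54, against -0.215 over all genes. The lowest members in KO were Kif20a (-2.02), Bub1 (-1.82) and Cdca8 (-1.79) and the highest Smc4 (0.29), Cenpf (0.14) and Mad2l1 (-0.08). On estimated reads voom called Foxm1 higher (0.68, adjusted p = 0.0228) and Kif15 lower (-0.72, adjusted p = 0.0401) in WT, and 7 members lower in KO: Ccnb2, Cks2, Pbk, Cenpe, Kif15, Kif20a and Kif23. In both genotypes voom called a larger share of all genes than of the members, with the counts given under the processing below.

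Plasmablast KO library 3 widens the spread of every cultured comparison, so the values were also taken without it. Limma then called 33.4% of 9883 genes in WT (12% higher and 21.4% lower in plasmablasts) and 30.7% in KO (12.2% higher and 18.5% lower). Of the 47 members it called 3 in WT, 2 higher and 1 lower, and 11 in KO, 1 higher and 10 lower. The members' shares are below the shares of all genes for WT in both directions and for KO in the higher direction, and near it in the lower direction for KO. Both plasmablast WT libraries were above all activated WT ones for 10 members (21.6% of all genes) and below for 7 (36.9%). In KO the plasmablast libraries were above for 3 (22.4%) and below for 16 (35.5%).

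Foxm1 was the 1 member called higher in plasmablasts in both genotypes without plasmablast KO library 3. It was at 27.6 and 22.05 RPKM in plasmablast WT and 15.0, 14.5 and 15.3 in activated WT, and at 20.2 and 23.6 in plasmablast KO and 13.0, 15.2 and 14.8 in activated KO. In both genotypes all plasmablast libraries stood above all activated ones. The ratio of means was 1.66 in WT (log2 difference 0.69, SE 0.13, limma adjusted p = 0.00198) and 1.53 in KO (0.58, SE 0.13, adjusted p = 0.00615). With all libraries the WT difference was the same, with an SE of 0.541 and an adjusted p of 0.707, while the KO difference was -0.13 (limma adjusted p = 0.878), with Foxm1 at 4.28 in plasmablast KO library 3. Mki67 was called higher in WT (ratio 1.54, log2 difference 0.60, limma adjusted p = 0.00709), and its ratio of 1.3 in KO was not called (adjusted p = 0.0721).

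Kif15, a motor that works with Kif11 to keep the spindle bipolar, was the 1 member called lower in both genotypes. It was at 4.77 and 2.63 in plasmablast WT and 7.5, 6.27 and 5.75 in activated WT, and at 3.44 and 3.08 in plasmablast KO and 6.72, 6.02 and 7.62 in activated KO. The groups did not overlap in either genotype. The ratio was 0.568 in WT (log2 difference -0.71, SE 0.193, limma adjusted p = 0.0147) and 0.481 in KO (-0.87, adjusted p = 0.006). The read-poor plasmablast KO library 3 had Kif15 at 7.19, and with it the KO difference was -0.55 (limma adjusted p = 0.292).

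A pair of central spindle kinesins was called lower in KO. Kif20a, which carries the passenger complex to the central spindle, was at 14.6 and 15.5 in plasmablast KO and 19.4, 23.5 and 32.9 in activated KO, and at 21.2 and 14.3 in plasmablast WT and 22.9, 27.8 and 24.9 in activated WT. Kif23 was at 9.04 and 8.84 in plasmablast KO and 13.6, 13.5 and 18.2 in activated KO, and at 12.3 and 9.25 in plasmablast WT and 16.5, 16.6 and 11.9 in activated WT. The log2 differences in KO were -0.68 for both (limma adjusted p = 0.0235 for Kif20a and 0.0132 for Kif23), and in WT both missed the threshold (adjusted p = 0.0717 and 0.0785). The other members called lower in KO were Ccnb2 (-0.53, limma adjusted p = 0.0179), Cks2 (-0.54, 0.0232), Pbk (-0.42, 0.028), Nusap1 (-0.41, 0.0313), Cenpe (-0.52, 0.0345), Bub1 (-0.46, 0.0383) and Kif4 (-0.45, 0.0476). Called lower in 1 genotype and not in the other does not show a difference between them, and the interaction called none.

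By role and still without plasmablast KO library 3, the kinesins had the lowest median difference in KO (-0.45, none of 7 above 0) and in WT (-0.21, 2 of 7 above 0) of roles with more than 1 member. With all libraries, the median over all genes was -0.215 in KO and -0.117 in WT. The partners of the anaphase-promoting complex had the highest median difference among roles with at least 3 members, at 0.38 in WT and 0.14 in KO, with all 3 above 0 in both. With all libraries these 3 were below 0 in KO, at -0.46 for Cdc20, -0.54 for Ube2c and -0.57 for Cdca3. Without that library the ratio of means was 1.36 in WT and 1.14 in KO for Ube2c and 1.32 and 1.1 for Cdca3. For Cdc20 it was 1.25 in WT and 1.0 in KO, so its KO means were level. The WT and KO comparisons share no library, but they come from 1 fit with a common estimate of the spread. The activated libraries labelled WT 3 and KO 3 are also in doubt, so the comparisons are not fully independent.

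Without all libraries in doubt, limma called 46.3% of 9861 genes in WT (15.5% higher, 30.7% lower) and 33.6% in KO (12.1% higher, 21.5% lower). In WT the members called higher were Foxm1 (0.71, adjusted p = 0.000892), Mki67 (0.57), Ube2c (0.48), Cdca3 (0.41), Birc5 (0.40) and Cdk1 (0.38), and those lower were Kif15 (-0.78), Kif23 (-0.59) and Kif20a (-0.51). In KO Foxm1 was called higher (0.60, adjusted p = 0.00398), and 7 were lower: Kif15, Kif23, Kif20a, Ccnb2, Pbk, Nusap1 and Cks2. Foxm1 and Kif15 were the members called in both genotypes and both settings.

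**Figure D5:**
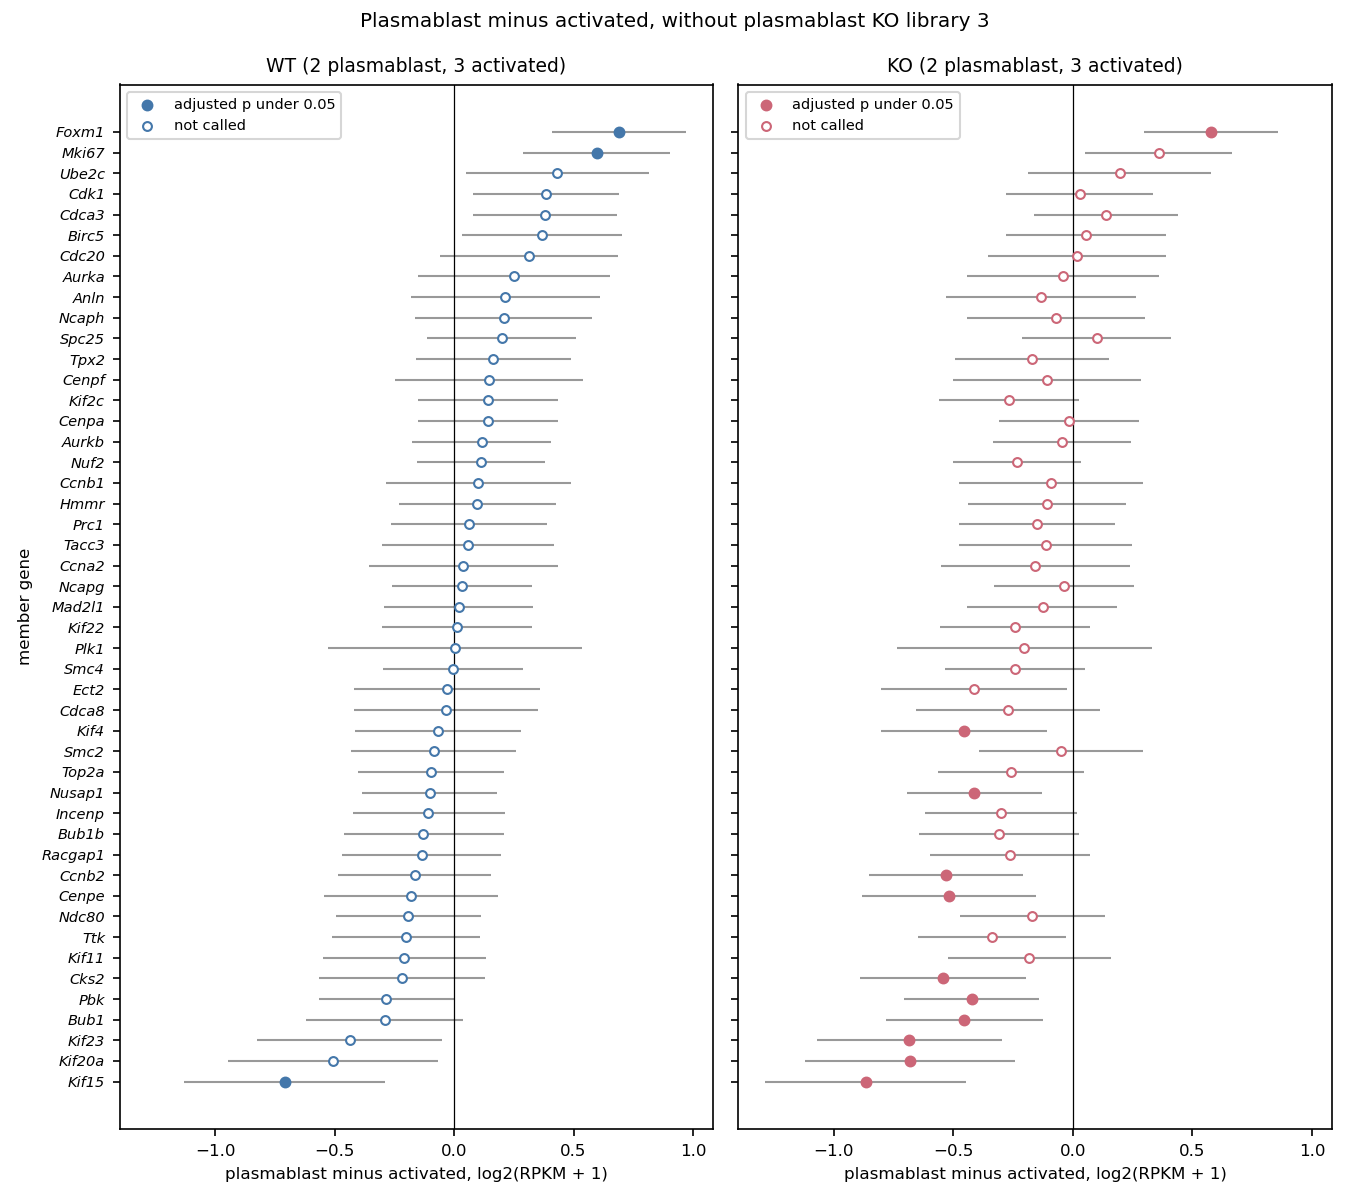
Plasmablast minus activated difference, as log2(RPKM + 1), for each of the 47 members in WT (left) and KO (right) without plasmablast KO library 3, with filled points for members called by limma and bars for 95% confidence intervals. Foxm1 lies highest in both genotypes (0.69 in WT, 0.58 in KO) and Kif15 lowest (-0.71 and -0.87), and most KO points lie below 0. With all libraries, 63% of all genes were below 0 in KO.

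Other cell cycle lists showed calls in both directions without plasmablast KO library 3. In WT 5 of 60 further G2/M genes were called higher and 6 lower in plasmablasts, against 12% and 21.4% of all genes, among them Psrc1 (-1.60, limma adjusted p = 0.000714), Fam83d (0.81, 0.00259) and Ska3 (0.65, 0.00373). Mybl2, whose product B-MYB shares promoters with FOXM1, went opposite to Foxm1. It was at 19.2 and 13.6 RPKM in plasmablast WT and 38.9, 33.0 and 29.2 in activated WT, and at 15.0 and 18.8 in plasmablast KO and 23.7, 30.0 and 40.9 in activated KO, with no overlap in either genotype. Its log2 difference was -1.01 in WT (limma adjusted p = 0.00376) and -0.84 in KO (adjusted p = 0.0112). Its list, DREAM and B-MYB, had 1 of 12 called higher (Lin54, 0.71) and 4 lower in WT, and 1 higher and 3 lower in KO. Of 26 APC and cohesin genes 1 was called higher and 7 lower in each genotype, the lowest adjusted p in WT being that of the cohesin regulator Pds5b (-0.64). Of 14 G1/S genes none was higher and 3 were lower in WT (Ccnd3 -0.83, Cdk6 -0.64, Cdk2 -0.42), and 2 in KO. Of 30 replication genes 2 were higher and 9 lower in WT, and 2 and 8 in KO, with Rpa1 at -0.66 and -0.62. Of 15 CDK inhibitors and brakes 2 were higher and 4 lower in WT, Btg1 at -2.76, and 3 and 1 in KO. In KO the further G2/M genes gave 3 higher and 5 lower, against 12.2% and 18.5% of all genes. The same shares of all genes stand beside the counts of the other lists.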

How the data were processed

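The authors deposited RPKM with 3 decimals, in a table for naive cells and another for cultured cells. STAR and mm10 are named in the submitters' processing notes (per the labels), and the counting tool and annotation are not given in the sources used here. The 47 members, their roles and the other gene lists were chosen with earlier results of these data known. Genes at 1 RPKM or more in at least 2 libraries of a table were analysed as log2(RPKM + 1) with a pseudocount of 1 in limma 3.58.1 (R 4.3.3), with 1 mean per group, a trend in the spread and two-sided tests of 9 contrasts. Adjusted p-values are by Benjamini and Hochberg over all genes tested in the table, and a gene was called at an adjusted p under 0.05. The fit was checked on simulated data. For both guides together, the differences of the 2 arms were averaged. Reads were estimated from RPKM, gene length and the smallest steps between values (100% of low values whole within 0.2) and used for an added limma voom fit. Tests were run only within a table. Values after ± are SD between libraries. Named members were 1 or 2 per role, every called member and the 3 highest and 3 lowest estimates of each comparison. Promoter windows come from RefSeq on GRCm38.p6. Libraries of the same letter or number were not treated as pairs: of 16 such pairs 2 had correlated deviations above 0.1. This check cannot show that pairing is absent. Deviations of the 2 plasmablast WT libraries mirror each other, and some pairs hold libraries in doubt.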

Additional observations from a re-analysis of the deposited data

How the results depend on the processing

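Members called depended mainly on which libraries were used and how they were weighted. In naive cells over both guides the count lower in KO, 0 with all libraries, was 2 with limma array weights (Cenpa and Ndc80), 5 without the libraries in doubt and 0 to 1 leaving out each library in turn. For guide 1 alone it was 1 without the libraries in doubt. In activated cells array weights gave 7 higher and 14 lower in KO, among them Ccnb1, whose difference turned from 0.04 to -0.081 (adjusted p = 0.0314). That weighting gave WT library 2 a weight of 80.5 and did not converge for the cultured table, so its calls are listed only. For plasmablasts against activated WT cells the count higher was 7 with array weights, 1 with voom, 6 without the libraries in doubt and 0 to 2 leaving out each library in turn, and the count lower was 5, 1, 3 and 0 to 1. For KO it was 2, 0, 1 and 0 to 1 higher and 14, 7, 7 and 0 to 10 lower, the highest counts being without plasmablast KO library 3. In that comparison Foxm1 turned from -0.13 to 0.50 with array weights, 0.58 without plasmablast KO library 3 and 0.60 without the libraries in doubt (-0.53 to 0.58 leaving out each library in turn), and Mki67 from -0.25 to 0.31 with array weights. These settings give little or no weight to that library of 51200 reads.

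With the replicate block, which adds the letter or number as a term, Top2a was called lower in naive KO over both guides (-1.004, adjusted p = 0.039) and in guide 1 (-1.54, adjusted p = 0.0394), so the count was 1 in each. It changed no other member's call, and the count of all genes called with it is not given here. The labels do not say what a letter, or the m before a number, stands for. Correlations between libraries of the same letter or number ran from -0.243 to 0.254, highest with their own in 5 of 16 pairs, and cannot show that pairing is absent.

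The count of all genes called moved as well. Over both guides in naive cells it was 191 with all libraries, 527 with array weights, 119 with voom, 337 without the libraries in doubt, 387 without naive KO guide 1 library A and 80 without naive WT guide 1 library C. In activated cells it was 0, 6751 with array weights and 70 without the libraries in doubt. For plasmablasts against activated WT cells it was 176, 5509 with array weights, 2365 with voom, 3303 without plasmablast KO library 3 and 4565 without the libraries in doubt, and for KO 344, 4400, 2580, 3033 and 3318. Scaling libraries to one median left 35 of 47 members above 0 in the WT comparison, against 26, with a shift of the median of all genes from -0.12 to 0.00. In KO that scaling left 6 above 0, against 2. A pseudocount of 0.1, no filter and a stricter filter changed no member's call in any comparison. The median activated to naive ratio ran from 14.5 to 24.4 leaving out each library in turn and was 14.5 without the libraries in doubt, and all 47 members stood above the naive libraries in each. Among members near 1 RPKM in naive cells, and among all in plasmablast KO library 3, depth and low level limit what a difference can show.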

Other observations

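The libraries lettered C had the highest median over the 47 members in each of the 4 naive groups. The medians of libraries A, B and C were 0.926, 1.2 and 4.07 RPKM in WT of the guide 1 arm, 0.013, 0.593 and 0.749 in KO of guide 1, 1.15, 0.536 and 2.04 in WT of the guide 2 arm and 0.523, 0.644 and 1.49 in KO of guide 2. Library C held the highest value of its group for 46, 22, 35 and 37 of the 47 members in that order. The labels do not say what a letter stands for, and the pattern was noticed after the values were seen.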
